A study of Mus musculus with 12 samples.

Results

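The immediate early genes Fos, Fosb, Jun, Junb, Egr1, Atf3, Nr4a1, Ier2, Dusp1 and Zfp36 were read in the proximal colon of 12 mice. They were chosen by name, as genes known to respond within minutes to stimulation or tissue handling, with no rule on their values in these mice. All 10 were found, through their Ensembl identifiers, among the 38924 genes that each count table lists. All 10 also passed the filter on low counts, which asked for at least 10 counts in at least 3 mice and left 20311 genes for the genotype comparison.

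The study sequenced RNA of the proximal colon from 6 APC Min/+ mice and 6 wild type (WT) mice, to compare the 2 genotypes before polyps appear. The APC Min/+ mice (M8_2, M10_2, M18_2b, M13_1, M2_A and M20_1) carry 1 mutated copy of Apc, a tumour suppressor that restrains Wnt signalling, in every cell. The WT mice were M17_2, M19_1, M16_1, M18_2a, M17_1 and M18_b. All 12 were untreated C57BL/6 mice of 6 weeks. Per the methods they were female and were killed with carbon dioxide, and their colon segments went into RNAlater. The genotypes were caged apart, so genotype and cage cannot be told apart. The labels give neither the shipment a mouse came in nor the order or duration of the dissections.

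The total count on genes lay between 50313805 and 197914821 with a median of 97592282.5. CPM, the unit used here, is the count scaled to library size with TMM factors, and 3 counts make 0.0152 to 0.0596 CPM depending on the mouse. No replicate pair agreed within sampling noise, the lowest chi-square per degree of freedom being 30.2. The labels call the tissue mucosa. Summed markers of epithelium stood at 10170 to 49080 CPM, and those of smooth muscle at 4529 to 7109 CPM, so muscle was in every sample. The APC Min/+ mice M10_2 and M13_1 stood apart from the other 10 mice. Their summed CPM of 6 distal colon markers, among them Hoxb13 and Tgm3, was 2761 and 2619, against 1.97 to 7.68 elsewhere, and their epithelial sum was the lowest (10170 and 10370 CPM). Car1 (965.5 and 2539 CPM, against at least 14620 elsewhere) made most of that gap. Muc2 (1713 and 1268 CPM, against at least 2830 elsewhere) and Krt20 (588.9 and 533.9 CPM, against at least 984.6 elsewhere) were also lowest in these 2 mice. Epcam, at 1362 and 1284 CPM, lay within the range of the other mice (1239 to 1624), as did Krt8 and Vil1. Cdh1 was highest in these 2 mice (1490 and 1199 CPM). Results are therefore also given without these mice. In whole tissue, fewer cells of a type and less RNA per cell cannot be told apart.

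Immediate early genes are transcribed without new protein synthesis when growth factors, stress or mechanical disturbance activate kinase cascades. The ERK cascade acts through ternary complex factors and SRF, which bind the CArG box, while CREB family factors bind the cAMP response element (CRE). The transcripts are short-lived, and several of their products shut the response down again. Fos and Jun proteins pair up as the transcription factor AP-1. In the intestine, as elsewhere, they also respond to the removal and handling of the tissue.

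The stretches around the start of the genes were searched for known sites by their letters. RefSeq holds the 300 bases around the start (250 before and 50 after, GRCm38.p6) for 8 of the 10, the entries for Egr1 and Ier2 being missing. The starts used are those of RefSeq. For Atf3, Nr4a1, Dusp1 and Zfp36 they lie well inside the GENCODE M21 gene spans given below. The CRE core, TGACG on either strand, was in 6 of the 8 windows (Fos, Fosb, Junb, Atf3, Nr4a1 and Dusp1), against 20.8% of 32851 promoters of the same length. The full CRE, TGACGTCA, which contains the CRE core, was found in Dusp1 alone (1.79% of all promoters), and a CArG box in Zfp36 alone (1.63%). TATAAA was in the windows of Fos, at bases -33 to -28 from the start, and of Junb, at bases 1 to 6 (13.6% of all promoters). The GC box, GGGCGG, was in 7 of 8 (35.7%), Junb being the exception. No window held TGANTCA, the form of the AP-1 site that was searched for (7.81%). Other forms were not searched as AP-1 sites. A match is a stretch of letters and not evidence of binding. Sites more than 250 bases before the start were not searched, so a site missing from a window can still lie farther upstream. The 150 bases before the start of 5 of the genes follow, 5′ to 3′ on the strand of the gene, with CRE core, full CRE and CArG matches in capitals. Fos (chr12:85473740-85473889, + strand), Fosb (chr7:19310046-19310195, − strand) and Junb (chr8:84978749-84978898, − strand) are shown for the CRE core they share, Dusp1 (chr17:26508473-26508622, − strand) for the full CRE and Zfp36 (chr7:28379229-28379378, − strand) for the CArG box.
Fos: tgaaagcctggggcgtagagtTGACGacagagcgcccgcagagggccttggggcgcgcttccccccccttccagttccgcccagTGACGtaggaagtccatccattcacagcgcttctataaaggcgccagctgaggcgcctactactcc
Fosb: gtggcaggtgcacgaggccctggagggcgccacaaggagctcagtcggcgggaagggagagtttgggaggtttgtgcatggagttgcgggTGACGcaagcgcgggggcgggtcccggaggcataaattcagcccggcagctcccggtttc
Junb: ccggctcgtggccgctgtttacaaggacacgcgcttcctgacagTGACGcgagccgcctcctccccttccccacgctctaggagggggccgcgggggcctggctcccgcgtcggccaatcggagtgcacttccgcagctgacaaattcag
Dusp1: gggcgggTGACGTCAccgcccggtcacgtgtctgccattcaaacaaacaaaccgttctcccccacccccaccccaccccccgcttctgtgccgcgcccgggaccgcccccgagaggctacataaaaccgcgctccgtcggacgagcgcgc
Zfp36: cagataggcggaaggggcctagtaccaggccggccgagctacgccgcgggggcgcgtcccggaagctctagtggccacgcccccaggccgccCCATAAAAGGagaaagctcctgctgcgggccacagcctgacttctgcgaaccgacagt

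No immediate early gene passed the threshold between genotypes. The level of all 10 was on average equal or higher in APC Min/+ mice, from no difference for Dusp1 to a 1.92-fold difference for Nr4a1, and in all 10 the genotypes overlapped. With edgeR's quasi-likelihood test, 0 of 10 had an FDR under 0.05 with a 2-fold change, and this was also the case for 0% of the 20311 genes tested, for which no FDR went below 0.908. Before adjustment, 0 of 10 had a p-value under 0.05, against 5.27% of all genes. DESeq2 and edgeR's likelihood ratio test also called 0 of 10, against 0.133% and 0.0739% of all genes. The groups did not overlap for 0.118% of all genes and for none of these 10. The mice are separate animals, and 6 against 6 allow an exact permutation p-value as low as 0.002165.

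**Figure D1:**
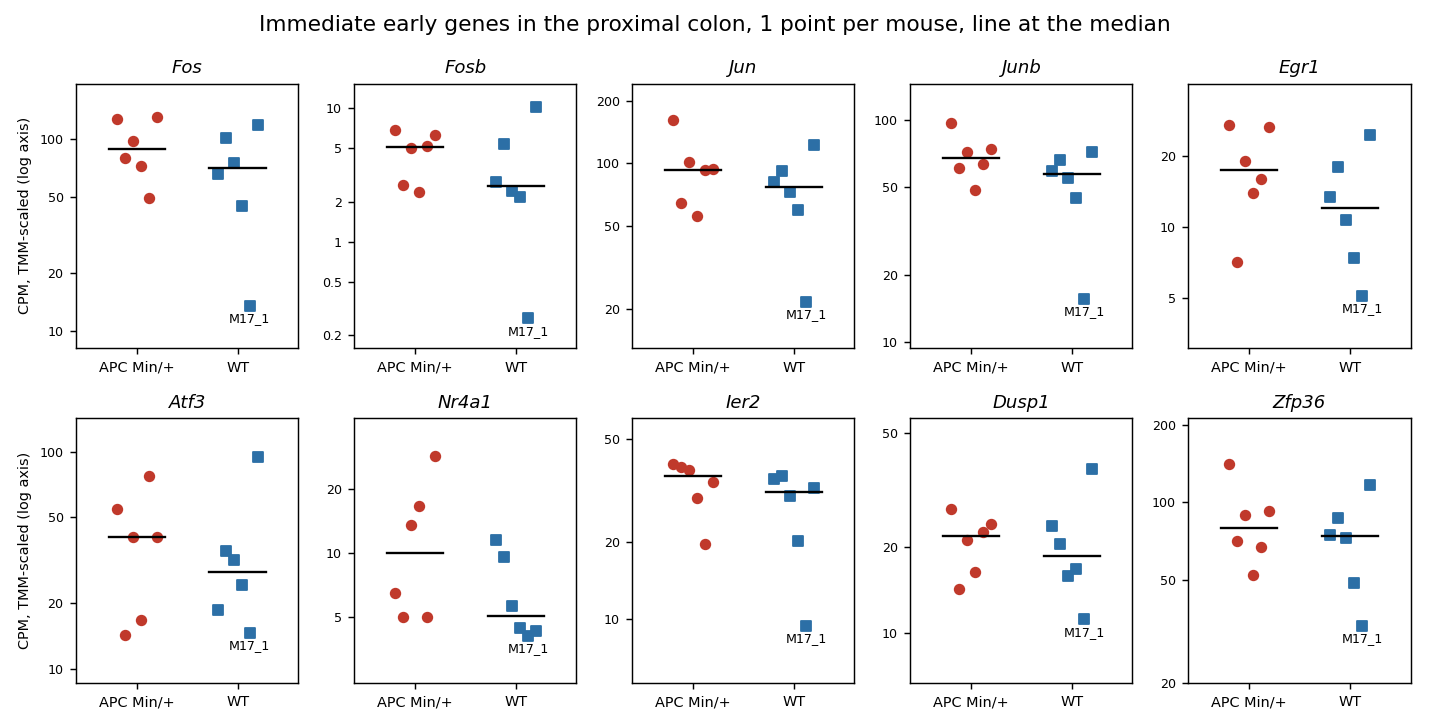
CPM on log axes of the 10 immediate early genes in 6 APC Min/+ mice (circles) and 6 WT mice (squares), 1 point per mouse, with a line at the median of each genotype. The genotypes overlap in each panel, and the WT mouse M17_1 is the lowest point in each panel except that of Atf3, where M10_2 lies slightly below it.

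Fos (ENSMUSG00000021250.7), chromosome 12 from 85473890 to 85477273 on the forward strand of GRCm38, encodes the founding AP-1 partner of the Jun proteins. In APC Min/+ mice its level ran from 49.4 CPM (M2_A) over a median of 89.1 to 130.1 CPM (M20_1), and in WT mice from 13.6 CPM (M17_1) over 70.9 to 118.9 CPM (M18_b). The second lowest WT mouse, M18_2a, had 44.9 CPM, so that both genotypes had mice above 100 CPM and mice below 50 CPM. The means were 93.0 ± 31.9 CPM (SD, n = 6) and 70.0 ± 38.0 CPM (SD, n = 6), a log2 fold change of 0.41 (SE, the standard error, 0.40, edgeR FDR = 0.91), which is about the size of its standard error. Without M17_1 it was 0.19 and without M18_b 0.63.

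Fosb (ENSMUSG00000003545.2, chromosome 7, 19302696 to 19310051, reverse strand), a Fos paralog that takes the same place in AP-1, was the scarcest of the 10 per length. It lay between 2.34 and 6.91 CPM in APC Min/+ mice (median 5.12) and between 0.267 and 10.17 CPM in WT mice (median 2.61). The highest and the lowest mouse, M18_b and M17_1, were both WT and differed 38.1-fold. Between genotypes the log2 fold change was 0.29 (SE 0.58, edgeR FDR = 0.93), and it was 0.037 without M17_1 and 0.86 without M18_b.

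Jun (ENSMUSG00000052684.3, chromosome 4, 95049034 to 95052222, reverse strand), the AP-1 subunit that binds DNA with Fos or with itself, ranged from 55.95 CPM (M13_1) to 161.1 CPM (M8_2) in APC Min/+ mice, with a median of 93.2. In WT mice it ranged from 21.6 CPM (M17_1) to 122.0 CPM (M18_b), with a median of 77.1. Its exons overlap those of Junos on the opposite strand, and the sources used here do not say whether counting used the strand. Its log2 fold change was 0.34 (SE 0.34, edgeR FDR = 0.91), about its standard error. It was 0.13 without M8_2, 0.15 without M17_1 and 0.54 without M18_b.

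Junb (ENSMUSG00000052837.5, chromosome 8, 84974484 to 84978718, reverse strand), a Jun paralog that is a weaker activator, was the tightest of the AP-1 genes among the 10. It lay between 48.2 and 97.6 CPM in APC Min/+ mice (median 67.7). In 5 WT mice it lay between 44.4 and 71.9 CPM, and in the sixth, M17_1, at 15.6 CPM. The means were 69.4 ± 16.6 CPM (SD, n = 6) and 52.1 ± 20.2 CPM (SD, n = 6), with a log2 fold change of 0.41 (SE 0.29, edgeR FDR = 0.908) that was 0.22 without M17_1. Junb shares exon sequence with Prdx2 on the opposite strand.

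Atf3 (ENSMUSG00000026628.8, chromosome 1, 191170296 to 191218039, reverse strand), a CREB family factor induced by cell stress, was weakly related to Fos (r = 0.49 across mice) and closer to Dusp1 (0.81) and Fosb (0.80). It ran from 14.3 CPM (M10_2) to 77.3 CPM (M2_A) in APC Min/+ mice (median 40.3) and from 14.7 CPM (M17_1) to 94.98 CPM (M18_b) in WT mice (median 27.98). M2_A, the second highest of the 12 for Atf3, was the lowest APC Min/+ mouse for Fos. The log2 fold change of 0.15 (SE 0.49, edgeR FDR = 0.96) turned to -0.13 without M2_A and -0.025 without M17_1, and was 0.71 without M18_b and 0.54 without M10_2 and M13_1.

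Egr1 (ENSMUSG00000038418.7, chromosome 18, 34859823 to 34864984, forward strand), a zinc finger factor switched on through SRF, lay between 7.12 and 26.9 CPM in APC Min/+ mice (median 17.5). In WT mice it lay between 5.11 and 24.4 CPM (median 12.04). Each genotype thus spanned low and high levels, with M10_2 lowest among the APC Min/+ mice and M17_1 lowest among the WT mice. For the genotypes this gave a log2 fold change of 0.47 (SE 0.38, edgeR FDR = 0.91), and it was 0.30 without M17_1, 0.75 without M18_b and 0.75 without M10_2 and M13_1.

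Nr4a1 (ENSMUSG00000023034.6, chromosome 15, 101254269 to 101274795, forward strand), an orphan nuclear receptor induced in lymphocytes by antigen receptor signals and in many other cells by growth factors, had the largest genotype difference of the 10. Its level in APC Min/+ mice ran from 4.98 CPM (M2_A) over a median of 9.996 to 29.0 CPM (M20_1), and in WT mice from 4.04 CPM (M17_1) over 5.03 to 11.6 CPM (M17_2). M20_1, M13_1 and M18_2b were above every WT mouse, and the other 3 APC Min/+ mice lay among the WT mice. Its log2 fold change was 0.94 (SE 0.45) with an unadjusted p-value of 0.0589 and an FDR of 0.908 from edgeR's quasi-likelihood test. Leaving out M20_1 alone lowered it to 0.51, and over all 12 such fits it lay between 0.51 and 1.18. DESeq2 gave 0.94 with an adjusted p-value of 0.70, and 1 of the 10 members had an unadjusted p-value under 0.05 with it, against 6.49% of all genes. On the log2(CPM + 0.5) scale the difference was 0.71 (exact permutation test, two-sided, p = 0.175).

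Ier2 (ENSMUSG00000053560.4, chromosome 8, 84661331 to 84662852, reverse strand), a small nuclear protein of the same response, was among the steadier members. It lay between 19.6 CPM (M2_A) and 40.1 CPM (M8_2) in APC Min/+ mice (median 35.9) and between 9.47 CPM (M17_1) and 35.95 CPM (M19_1) in WT mice (median 31.2). APC Min/+ over WT, the log2 fold change was 0.30 (SE 0.28, edgeR FDR = 0.91) and 0.12 without M17_1.

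Dusp1 (ENSMUSG00000024190.6, chromosome 17, 26505590 to 26562128, reverse strand), a phosphatase that switches off MAP kinases, had the same mean in both genotypes, 20.9 ± 4.80 CPM (SD, n = 6) and 20.9 ± 9.16 CPM (SD, n = 6). It ran from 14.2 CPM (M10_2) to 27.0 CPM (M8_2) in APC Min/+ mice and from 11.2 CPM (M17_1) to 37.5 CPM (M18_b) in WT mice. The widest values on both sides were thus WT. The log2 fold change was 0.001 (SE 0.26, edgeR FDR = 0.9998), and its sign was reversed in 8 of the 12 fits that left out 1 mouse. Exons of Ergic1 on the opposite strand overlap it.

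Zfp36 (ENSMUSG00000044786.5, chromosome 7, 28376784 to 28380253, reverse strand) encodes tristetraprolin, which speeds the decay of AU-rich transcripts, those of cytokines and of early genes among them. It lay between 52.4 CPM (M13_1) and 141.0 CPM (M8_2) in APC Min/+ mice (median 79.8), and between 33.3 CPM (M17_1) and 117.0 CPM (M18_b) in WT mice (median 74.0). With a log2 fold change of 0.24 (SE 0.29, edgeR FDR = 0.91), the difference was smaller than its standard error. It was 0.038 without M8_2, 0.087 without M17_1, 0.14 without M18_2a and 0.44 without M18_b. Its exons overlap Gm44710 on the opposite strand.

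The 10 log2 fold changes had a median of 0.32, against -0.008 for all 20311 genes. All 10 were above 0, where 48.4% of all genes were. The 10 genes are read in the same mice and move together between them, so they are not 10 separate observations of a genotype difference. Single mice carried much of the median. It was 0.13 without M17_1, with 8 of 10 above 0, and 0.20 without M8_2, with 9 of 10 above 0. It was 0.59 without M18_b and 0.55 without M10_2 and M13_1, with 10 of 10 above 0 in both. With offsets that correct for gene GC content it was 0.32. The lowest adjusted p-value of any member in any of these fits was 0.548, from edgeR without M2_A.

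**Figure D2:**
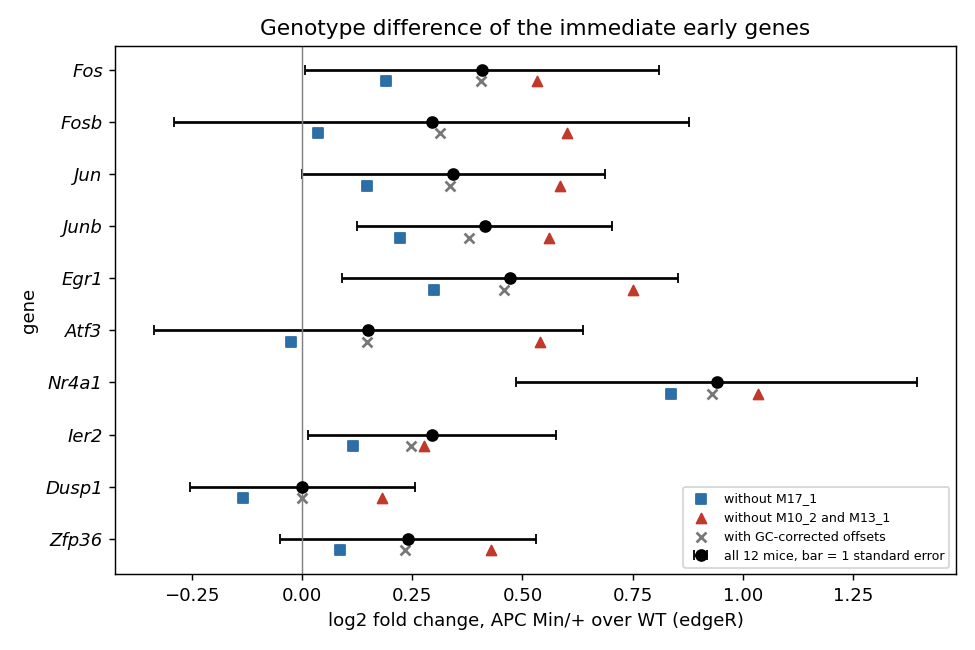
Log2 fold change of APC Min/+ over WT for the 10 genes from edgeR, with 1 standard error as the bar, and below each the value without M17_1, without M10_2 and M13_1, and with GC-corrected offsets. Leaving out M17_1 moves each value down, to a median of 0.13, and leaving out M10_2 and M13_1 moves each value up except that of Ier2, to a median of 0.55.

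Per exon length, Zfp36, Fos and Junb were the most abundant of the 10 and Fosb the least. The mean RPKM (counts scaled to library size and gene length) over 12 mice was 43.8 ± 15.6 for Zfp36, 34.5 ± 14.5 for Fos, 33.0 ± 10.5 for Junb and 26.5 ± 10.6 for Jun (SD, n = 12). Ier2 and Atf3 followed with 19.98 ± 6.43 and 19.06 ± 11.9 RPKM. Dusp1 had 7.68 ± 2.30, Nr4a1 3.92 ± 2.97, Egr1 3.48 ± 1.59 and Fosb 1.13 ± 0.665 RPKM. The steps from Junb to Jun, from Atf3 to Dusp1 and from Egr1 to Fosb held in 12 of 12 mice, and those from Zfp36 to Fos, from Jun to Ier2 and from Dusp1 to Nr4a1 in 10 of 12. Fos exceeded Junb in 8 mice, Ier2 exceeded Atf3 in 8 and Nr4a1 exceeded Egr1 in 7, so these neighbours do not differ beyond their spread.

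The immediate early genes varied between mice more than most genes did. The SD of log2(CPM + 0.5) over the 12 mice was between 0.45 (Dusp1) and 0.99 (Fosb), with a median of 0.26 over the 14898 tested genes with a mean of at least 1 CPM. Of the 10, 8 lay above the 90th percentile of those genes, and Zfp36 (89.6) and Dusp1 (82.0) below it. The highest mouse exceeded the lowest by between 3.36-fold for Dusp1 and 38.1-fold for Fosb, against a median of 1.95-fold for all these genes. Within APC Min/+ mice the SD was smaller than within WT mice for 8 of the genes, the exceptions being Atf3 and Nr4a1, a difference that was not tested. The WT mice include M17_1, which was lowest for 9 of the 10 genes, and the SD without M17_1 was not computed.

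The low and the high ends belonged to a few mice. M17_1, a WT mouse, was lowest for 9 of the 10 genes, with an average deviation of -1.58 from the gene medians on the log2 scale. M18_2a, also WT, was among the 3 lowest for 8 of the 10, at -0.59. M8_2 (APC Min/+) was highest for 5 genes, M18_b (WT) for Fosb, Atf3 and Dusp1, and M20_1 (APC Min/+) for Fos and Nr4a1, with average deviations of 0.62, 0.58 and 0.56. Low and high mice were thus present in both genotypes, but the lowest was WT. M10_2 and M13_1, the mice with distal colon markers, were at -0.36 and -0.23.

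**Figure D3:**
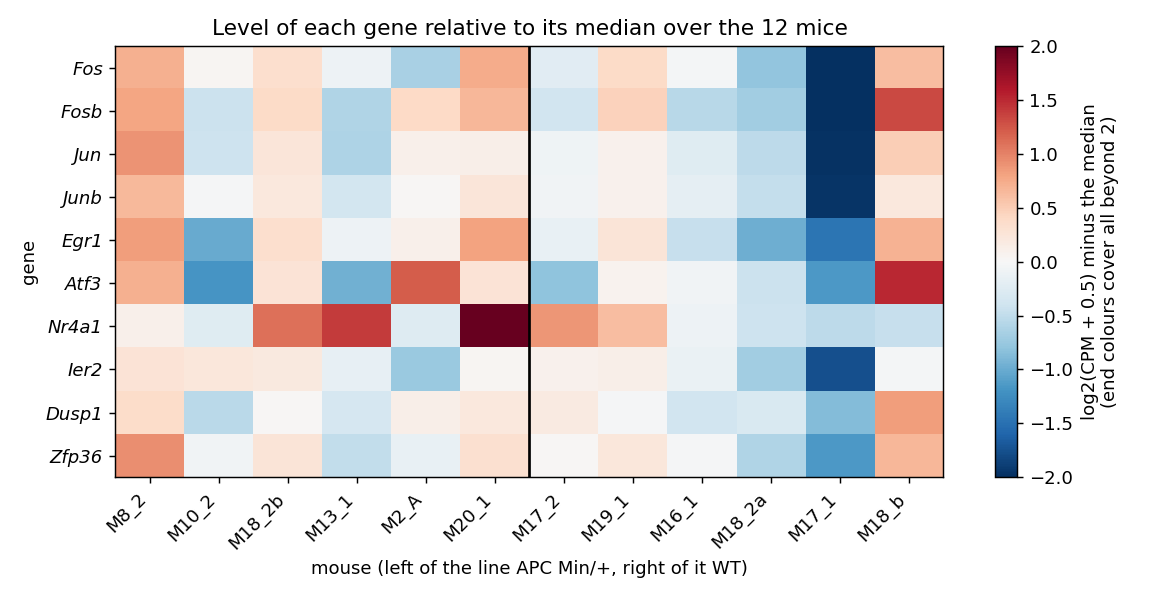
Level of each of the 10 genes (rows) in each mouse (columns, APC Min/+ left of the line and WT right of it) as log2(CPM + 0.5) minus the median of that gene over the 12 mice. M17_1 is blue in every row, on average -1.58 from the gene medians, and Nr4a1 departs from most other rows in M13_1 and M18_b.

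Most of the 10 genes followed Fos from mouse to mouse. Across the 12 mice on the log2(CPM + 0.5) scale, Pearson's r with Fos was 0.94 for Junb (Spearman's rho 0.88), 0.93 for Ier2 (rho 0.71), 0.89 for Zfp36 (rho 0.91), 0.89 for Jun (rho 0.76), 0.88 for Fosb (rho 0.82), 0.81 for Egr1 (rho 0.82) and 0.70 for Dusp1 (rho 0.61). In two-sided permutation tests of r with 100000 resamples, the unadjusted p-values of these 7 ran from 1e-05 (Zfp36, the smallest the test can give) to 0.012 (Dusp1), and the values adjusted over the 9 relations from 9e-05 to 0.015. For rho, 6 of the 7 passed after adjustment, Dusp1 having 0.052. Atf3 (r = 0.49, rho = 0.54, permutation p = 0.10, adjusted 0.11) and Nr4a1 (r = 0.46, rho = 0.47, permutation p = 0.12, adjusted 0.12) did not pass.

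These relations were weaker without the 2 mice farthest from the median of Fos, M17_1 and M18_2a. Without them r lay between 0.25 (Nr4a1) and 0.78 (Zfp36), and 0 of 9 passed after adjustment, the lowest adjusted permutation p-value being 0.062. By rho, Zfp36 (0.84, adjusted permutation p = 0.035) and Junb (0.79, adjusted permutation p = 0.040) still passed. Within the 6 APC Min/+ mice r ran from 0.004 (Atf3) to 0.81 (Ier2) and 0 of 9 passed the exact permutation test after adjustment. Within the 6 WT mice, which include M17_1 and M18_2a, r ran from 0.41 (Nr4a1) to 0.99 (Jun) and 6 of 9 passed. Leaving out M17_1 alone lowered Dusp1 to r = 0.52 (adjusted permutation p = 0.13), and leaving out M2_A alone raised Atf3 to r = 0.65 (adjusted permutation p = 0.031). With M17_1 alone left out 6 of 9 passed, and with M18_2a alone left out 7 of 9. Without M10_2 and M13_1, 7 of 9 passed, as with all mice.

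**Figure D4:**
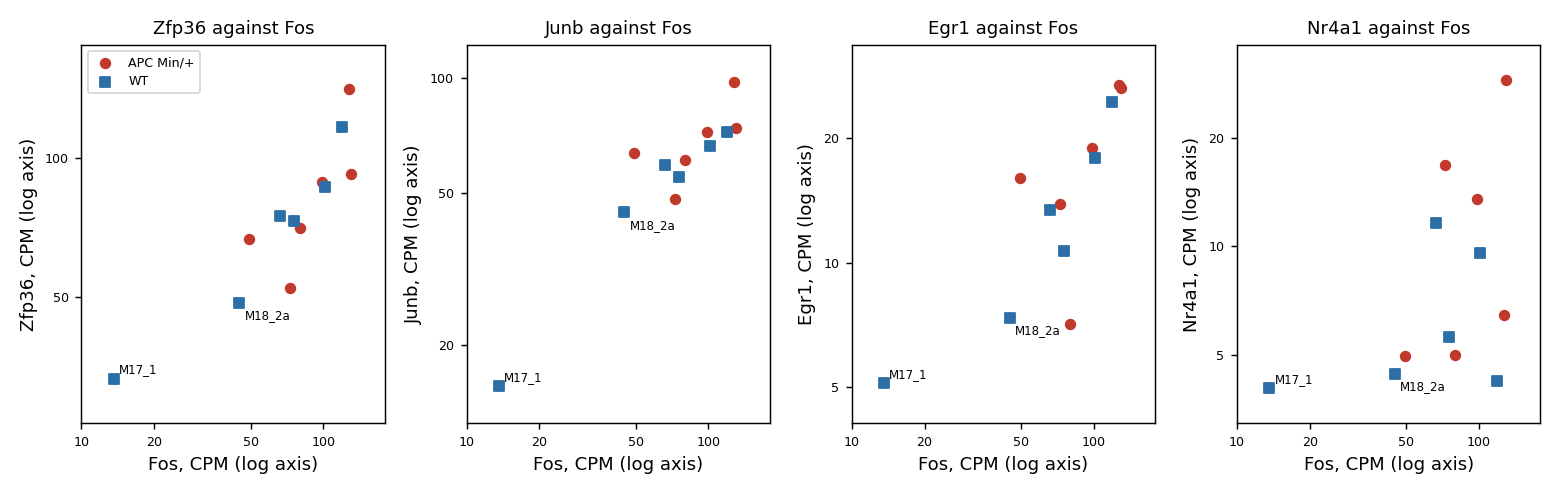
CPM of Zfp36, Junb, Egr1 and Nr4a1 (vertical, log axes) against CPM of Fos (horizontal, log axes) in APC Min/+ mice (circles) and WT mice (squares), 1 point per mouse. Zfp36, Junb and Egr1 (r = 0.89, 0.94 and 0.81) rise with Fos, with M17_1 and M18_2a at the low end, while Nr4a1 (r = 0.46) is scattered.

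Many other genes followed Fos as well. Of the 14897 other genes with a mean of at least 1 CPM, 15.9% had an r above 0.7 with Fos, and 7 of the 9 members did. Without M17_1 the share was 4.58% and 5 of 9 members were above 0.7. Without M17_1 and M18_2a it was 3.89%, and 1 of 9 (Zfp36) was above 0.7. Of the 9, 5 were in the top 5% of all genes by r with Fos, whose limit was 0.86, and 3 without M17_1 and M18_2a. With another member in the place of Fos, between 1 (Ier2 and Nr4a1) and 7 (Fosb, Egr1, Dusp1 and Zfp36) of the other 9 were in the top 5%. For Egr1, 6 of 9 were in the top 1% with all mice and 2 without M17_1 and M18_2a. The 10 genes nearest to Fos outside the list were Rac1 (r = 0.98), Wasl, Map2k3 (0.97 each), Herpud2, Smap2, Mafk, Dpp3, Cldn7 (0.97 each), Efnb2 and Eif3b (0.96 each) over 12 mice. Without M17_1 and M18_2a only Wasl of these 10 was still among the nearest 10.

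**Figure D5:**
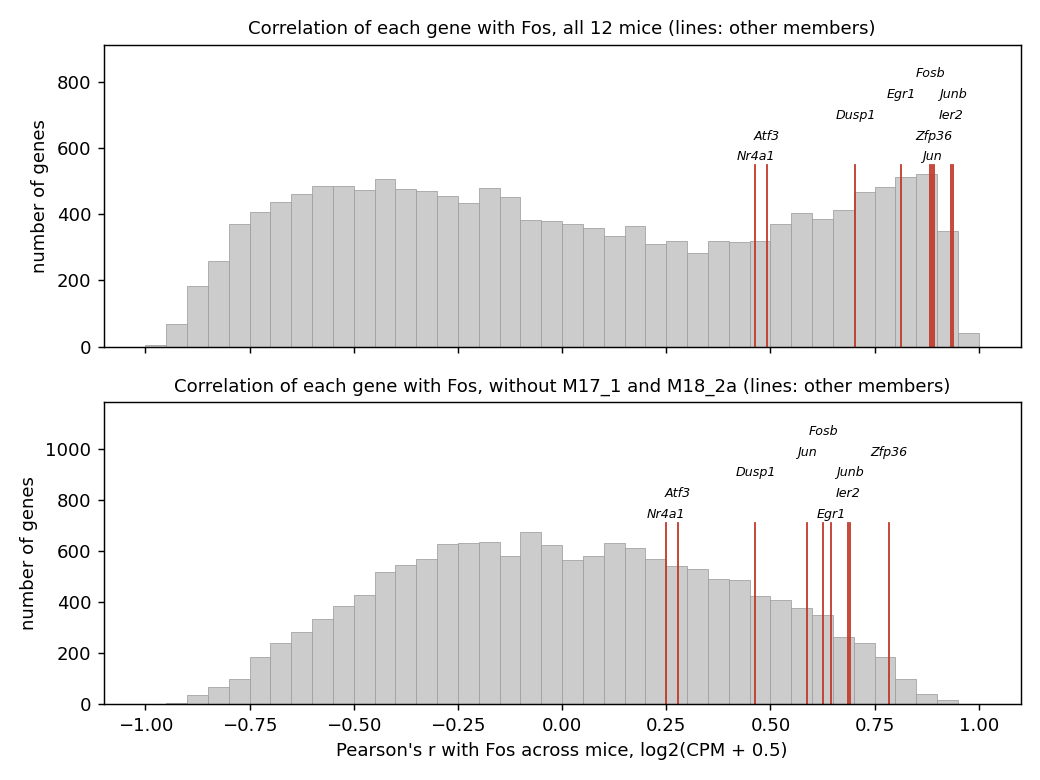
Number of genes (vertical) by Pearson's r with Fos across mice (horizontal), with lines at the 9 other members, for all 12 mice (above) and without M17_1 and M18_2a (below). With all mice 15.9% of genes lie above 0.7 and 5 members lie above the limit of the top 5%, and without the 2 mice 3.89% of genes and 1 member lie above 0.7, with 3 members in the top 5%.

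Nr4a1 was the member least like the others. Over the 45 pairs of members the median r was 0.80, with the highest for Jun and Junb (0.97) and the lowest for Atf3 and Nr4a1 (-0.089). The 9 pairs with Nr4a1 had a median of 0.26 and the other 36 a median of 0.84. With all mice, the genes nearest to Nr4a1 were Ighv1-5 (r = 0.85), an immunoglobulin heavy chain segment, and Nr4a3 (r = 0.83), its paralog. These neighbours depended on the mice used. Without M10_2 and M13_1, Nr4a3 was the nearest (r = 0.89), and Ighv1-5 was not among the nearest 10. Without M17_1 and M18_2a, Ighv1-5 was still among the nearest 10 (r = 0.91), and Nr4a3 was not.

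The balance of GC-rich and GC-poor genes differed between mice and was lowest in M17_1. The level of GC-rich genes (the top quintile, at least 55.3% GC) minus that of GC-poor genes (the bottom quintile, at most 43.9%), on the log2 scale relative to the other mice, was lowest in M17_1 (-0.67) and M18_2a (-0.32) and highest in M8_2 (0.23). It did not follow the members in every mouse. M2_A was at -0.31 with the 10 genes at 0.016 from their medians on average, and M10_2 at 0.22 with them at -0.36. All 10 members were above the median GC content of 49.7%, and 6 were in the GC-rich quintile. Among 12 measures set against Fos, this was the 1 that passed after adjustment (r = 0.84, rho = 0.61, permutation p = 0.0019 for r, adjusted 0.023). By rho it did not pass (adjusted permutation p = 0.35). Without M17_1 r was 0.62 (adjusted permutation p = 0.50), and without the 2 mice farthest from the median of the measure it was 0.46. In values corrected for GC content, M17_1 was still lowest on average, at -1.23 from the gene medians, and 7 of 9 relations with Fos still passed. The correction was chosen after seeing the data, and the GC measure was not among the measures planned for comparison with Fos.

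The share of counts on mitochondrial genes was 4.35% to 8.46% in 11 mice and 12.7% in M17_1, and its r with Fos was -0.72 (rho -0.44, permutation p = 0.013 for r, adjusted 0.065). Summed stroma markers (955 CPM in M17_1, the lowest, up to 2322 CPM) had r = 0.67 with Fos (rho 0.42, adjusted permutation p = 0.068). Summed immune markers (129.2 to 876.2 CPM, with M17_1 second highest at 857.6) had r = -0.65 (rho -0.57, adjusted permutation p = 0.065). Of the 7 immune markers Jchain had by far the widest range (48.7 to 771.6 CPM), against 24.3 to 62.8 CPM for Csf1r and 19.4 to 38.7 CPM for Ptprc. The sum thus mostly follows Jchain. Without M10_2 and M13_1 the mitochondrial, stroma and immune measures all passed by r (-0.88, 0.76 and -0.73). None of them passed by rho (adjusted permutation p = 0.29, 0.29 and 0.10), and without M17_1 none passed. Total count (r = 0.049), epithelium (-0.017), smooth muscle (0.051), neuron and glia (-0.13), distal colon (0.051) and summed heat shock genes (-0.22) did not pass against Fos, and neither did Per1 (0.29) and Dbp (0.27), clock genes whose level depends on the hour of death. The heat shock sum mostly follows Hspa8 (means of 1190 CPM in APC Min/+ and 1466 CPM in WT mice, r = -0.32 with Fos). Single heat shock genes were not tested against Fos. Among the 9, r was highest for Hspb1 (0.70), Hspa1b (0.64) and Hspa1a (0.575) and lowest for Hsp90aa1 (-0.50), with a median of 0.092. Of the 12 clock genes, which were not tested as a family, Nr1d1 (r = 0.90) and Npas2 (0.89) were above 0.7 and the lowest was Nr1d2 (-0.61). The median r of the 12 was 0.13, and 15.9% of all genes with a mean of at least 1 CPM were above 0.7. The part of any of these measures in the levels of the immediate early genes was not tested.

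A wider list of 60 immediate early genes gave a like picture, with 0 of the 58 that could be tested called. Values were above 0 for 45 of the 58 (median log2 fold change 0.25), against 48.4% of all genes. An unadjusted p-value under 0.05 with a higher level in APC Min/+ mice was found for 10 of 58, against 3.46% of all genes. This count depended on single mice. It was 1 without M18_2a, 3 without M17_1 or without M16_1, and 4 without M10_2 or without M13_1, where all genes gave 2.41%, 2.86%, 2.62%, 1.55% and 1.66%. With any other single mouse left out it was between 7 (without M8_2, where all genes gave 797 of 20092) and 12 (without M2_A, where all genes gave 1211 of 20248). Without both M10_2 and M13_1 it was 2 of 58, against 0.531% of all genes. The members of this list move together between mice, like the 10 genes above.

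The lowest p-values of the wider list belonged to genes of several roles. Btg2, an antiproliferative regulator, had 123.5 ± 10.9 CPM in APC Min/+ mice and 98.8 ± 15.4 CPM in WT mice (SD, n = 6 each), a log2 fold change of 0.32 (SE 0.12, edgeR FDR = 0.908). For Ccn1, a secreted matrix protein, the log2 fold change was 0.85, and it was 0.22 for Dusp6, a phosphatase of ERK. For Gdf15, a secreted stress cytokine, it was 1.80, with means of 1.90 ± 2.16 and 0.549 ± 0.313 CPM (SD, n = 6 each). For Arc, better known from neurons, it was 0.84, at means of 0.656 and 0.370 CPM. All of these had an FDR of 0.908. The most abundant per length were Mcl1 (116.4 RPKM), a survival factor of the BCL2 family, Klf4 (113.8 RPKM) and Klf6 (75.5 RPKM), zinc finger factors of the epithelium, Btg1 (48.5 RPKM) and Bhlhe40 (46.25 RPKM), with log2 fold changes of 0.44, 0.61, 0.17, 0.25 and 0.11. Of the 3 AP-1 genes outside the 10, Fosl2 and Jund had an r with Fos of 0.94 and 0.88 (log2 fold changes 0.30 and 0.42), and Fosl1 an r of 0.49 (log2 fold change -0.42).

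None of the genes that act upstream passed the threshold between genotypes. Of 24 factors and kinases, 0 were called and 1 had an unadjusted p-value under 0.05 (4.17%, against 5.27% of all genes), with a median log2 fold change of 0.037. That gene was Atf1, a CREB family factor, at 34.8 ± 2.85 and 29.3 ± 4.41 CPM (SD, n = 6 each) and a log2 fold change of 0.25 (SE 0.11, edgeR FDR = 0.908). The next lowest p-values were those of the kinases Rps6ka3 (log2 fold change 0.23) and Map2k1 (0.26) and of Elk3 (0.27) and Mrtfa (0.35), both partners of SRF. Among the most abundant were the kinase Mapk3 (175.7 RPKM, 0.015), Atf4 (79.9 RPKM, -0.13), Map2k1 (60.9 RPKM) and Rps6ka1 (40.2 RPKM, 0.24), with log2 fold changes after the levels.

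Heat shock genes, which also respond to handling and temperature, were mostly at lower levels in APC Min/+ mice, none past the threshold. Of 9 chaperone genes 0 were called, 8 had a log2 fold change below 0 and the median was -0.23. Of all 20311 genes tested, 10474 were below 0 and the median was -0.008. Without M16_1 the median of the 9 was -0.089, with 3 of 9 above 0 and 0 with an unadjusted p-value under 0.05. Hspa8 (-0.30) and Hsph1 (-0.43) had unadjusted p-values of 0.0338 and 0.0429, both with an FDR of 0.908 from edgeR. Of the 9, these 2 were under 0.05 before adjustment, against 5.27% of all genes. Of 12 clock genes 0 were called and 5 had a log2 fold change above 0, where 48.4% of all genes were. Arntl, the activator of the clock, had 0.70 (SE 0.30, edgeR FDR = 0.908).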

How the data were processed

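Proximal colon RNA of 6 APC Min/+ and 6 WT mice was sequenced with paired reads. For each mouse the authors deposited 1 table of raw counts per gene, with gene lengths, made with STAR 2.3.0 on GRCm38.p2 and featureCounts. The annotation release and the strand setting of the counting are not given in the sources used here. Identifiers were matched without their version to GENCODE M21, which named 37607 of 38924 genes. Libraries were grouped by the genotype in the labels. A column of the deposited tables without a sample occurred 0 times.

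The members and lists, and the 2 mice to leave out, were chosen with earlier results of these data known. Counts were tested with edgeR 4.0.16 (quasi-likelihood, TMM, at least 10 counts in at least 3 mice, FDR under 0.05 and at least 2-fold), with Benjamini-Hochberg adjustment over all genes tested. No label pairs the mice, so no block was used. Alternatives were DESeq2 1.42.0, the likelihood ratio test, RLE scaling, no TMM, no filter, a filter of 100 counts in 6 mice, each mouse left out, M10_2 and M13_1 left out, and, after seeing the data, a correction in 20 bins of GC content. The test was checked on simulated data in which the spread of each gene was capped at the median of the real genes, with calls by FDR alone. That check does not show the power for genes as variable as these 10. Correlations used log2(CPM + 0.5) and permutation tests with 100000 resamples (exact within a genotype). RPKM used the deposited lengths. Named genes were all members, the 5 lowest p-values and 5 highest RPKM of the wider and the upstream lists and the 10 nearest genes to Fos, and values of Nr4a3, Ighv1-5, Fosl1, Fosl2, Jund, Hspa8, Hsph1, Arntl, Nr1d1, Nr1d2 and Npas2 were picked after they were seen. Of the genes so named, 1 of the upstream list is not reported here. Promoters came from RefSeq. Limits of 3 counts cover counting error only.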

Additional observations from a re-analysis of the deposited data

Results flagged for a closer look

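Junb in the WT mice was the 1 gene and genotype, of 20 examined, with a mouse far from the others. M17_1 stood at 15.57 CPM, and its gap to the next mouse (M18_2a, 44.4 CPM) was 0.683 of the whole range of the 6 WT mice, above the critical value of 0.625. Chance gives such a value in about 1 in 20 groups. M17_1 was lowest for 9 of the 10 genes, with the highest mitochondrial share (12.7%) and the lowest level of GC-rich genes relative to GC-poor genes (-0.67 on the log2 scale). Their part in the low value was not tested.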

How the results depend on the processing

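The count of members called was 0 in each of the 21 alternatives, and so were those of the wider and the upstream lists at the same threshold. At an unadjusted p-value under 0.05 the wider list gave 10 and the upstream list 1. With each mouse left out in turn, the log2 fold change of Atf3 ran from -0.129 to 0.709 and that of Dusp1 from -0.133 to 0.259, both crossing 0, while the other 8 members stayed above 0. Dusp1 was also at -0.003 with a filter of at least 100 counts in 6 mice. The number of relations with Fos that passed was 6 to 8 of 9 with 1 mouse left out and 7 with another pseudocount, without TMM and with GC-corrected values. The number of other measures that passed against Fos was 1 of 12 with all mice, namely the GC measure, which was not planned. It was 4 without M10_2 and M13_1. With GC-corrected values, where the GC measure itself is left out, it was 0. The sign of r with Fos turned to 0.083 for epithelium without M10_2 and M13_1, and with GC-corrected values to -0.219 for smooth muscle, -0.055 for Per1 and -0.463 for Dbp, none of which passed a test. The cause of these changes was not tested. Leaving mice out leaves fewer to estimate the spread from. No paired analysis was possible because no label pairs mice across genotypes. DESeq2 called 27 and the likelihood ratio test 15 genes of all, against 0 with the quasi-likelihood test, and none of them was a member. The depth of at least 50313805 counts put every member above the limit of 3 counts in every mouse.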
